A study of Mus musculus with 6 samples.

Results

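Expression of 10 genes for matrix proteoglycans was compared between PID+ tumor cells, which make the Pak inhibitor domain, and PID- tumor cells, which lack it. The genes were taken by name from a list of 8 small leucine-rich proteoglycans (Bgn, Dcn, Lum, Fmod, Ogn, Prelp, Omd and Aspn) and 2 large hyaluronan-binding proteoglycans (Vcan and Acan), with earlier results of these data known. All 10 had a row among the 21966 genes of the table, and all 10 were among the 21959 genes that passed CuffDiff's quality status in both conditions.

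Proteoglycans are core proteins that carry long, sulfated sugar chains. Small leucine-rich proteoglycans bind fibrillar collagens and set the spacing and width of the fibrils, and several of them also bind TGF-beta, whereas versican and aggrecan form large, water-holding aggregates with hyaluronan. In the intestine most of this matrix is made by stromal cells, and biglycan and versican are known to be abundant in the stroma of many carcinomas.

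The cells were primary cultures grown from intestinal adenomas of mice that carry CDX2P-NLS-Cre and a floxed Apc allele (genotype CDX2P-NLS-Cre;APC^Δ/+), with ROSA26-PID in the PID+ animals and without it in the PID- animals. Cre is driven by the CDX2 promoter, which acts in the epithelium of the large and distal small intestine. There it removes exon sequence from Apc in both groups and, in the PID+ group, the stop cassette before a GST fusion of the domain that blocks Group I Paks. The labels name 3 samples per condition, from mice 1, 2 and 3 for PID- and mice 4, 7 and 26 for PID+, and they call the PID- samples normal and untreated, although the study describes them as tumor cells and gives its PID- cultures other numbers. The ages of the mice at culture are not given in the sources used here. By contrast, the methods describe 3 replicated runs per condition, whose reads went into 1 pooled alignment. The table gives each gene 1 FPKM (fragment number divided by transcript length and sequencing depth) in each condition, with CuffDiff's lower and upper bounds, which follow the values in parentheses here. Since there are no values per sample, differences could not be set against the spread between samples, and p-values are not given. The question was how far these proteoglycans differed between cells with and without Group I Pak inhibition.

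In PID+ cells, 3 of the 10 proteoglycans were at least 3-fold lower and 0 at least 3-fold higher, on the scale of FPKM + 1. Over all 21959 genes, 377 (1.72%) were at least 3-fold lower and 229 (1.04%) at least 3-fold higher. The 3 genes were Bgn, Omd and Dcn, all small leucine-rich, while Vcan and Acan were listed at higher values in PID+ cells without passing 3-fold on this scale. The deposited bounds of the conditions were apart for 1 of the 10 genes, Bgn, which was lower, and for 0 in the other direction, against 119 genes (0.542%) lower and 41 (0.187%) higher over the whole table. Over the 10 genes the log2 change had a median of -0.07, against 0 over all genes, and the median of the 10 became 0.01 when the median of each gene's chromosome was subtracted and -0.55 with a pseudocount of 0.1. The 8 small leucine-rich genes alone had a median of -0.46. A 3-fold change on this scale needs at least 2 FPKM in a condition, which 4 of the 10 genes (Bgn, Omd, Dcn and Vcan) and 11035 of 21959 genes (50.3%) had. In these bulk samples, fewer cells of a type and less RNA per cell cannot be told apart.

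**Figure D1:**
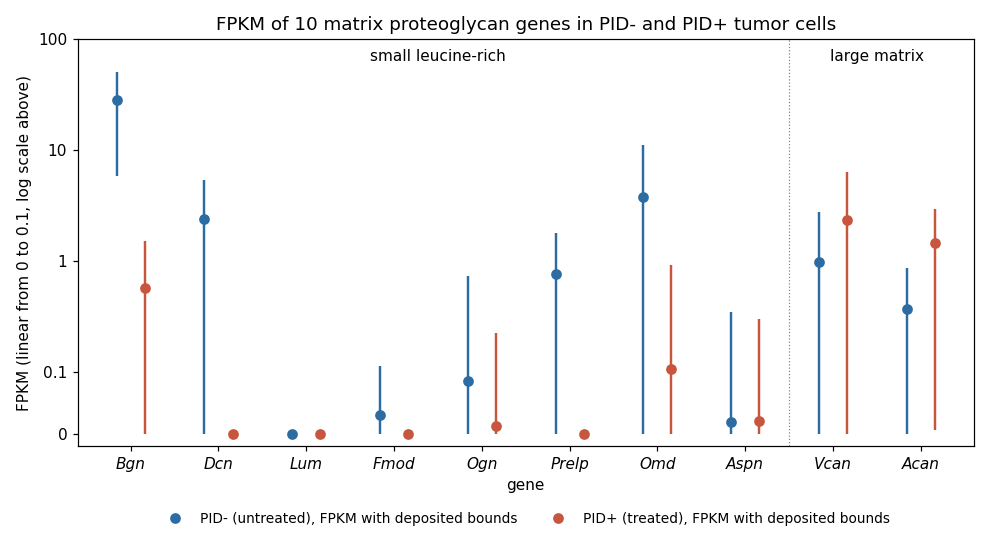
FPKM of each of the 10 proteoglycan genes in PID- cells (blue) and PID+ cells (red), on an axis that is linear from 0 to 0.1 and logarithmic above. Points are the pooled values and vertical lines reach from the lower to the upper deposited bound. Bgn, at 28.3 in PID- and 0.570 in PID+ cells, is the gene whose lines do not overlap.

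Biglycan (Bgn) carries chondroitin or dermatan sulfate chains, binds collagen fibrils and, when released from the matrix, is a ligand of Toll-like receptors. Bgn stood at 28.3 FPKM in PID- cells (5.82 to 50.7) and at 0.570 FPKM in PID+ cells (0 to 1.52). The PID+ value was 49.6-fold lower as a plain ratio, with a log2 change of -4.22 on FPKM + 1. Bgn was thus above 83.6% of all genes in PID- cells and above 46.2% of them in PID+ cells. With the longer of its 2 basic transcripts the values correspond to about 5961 fragments in PID- and 87 in PID+ cells, and with the shorter to about 3701 and 54.2. Bgn (ENSMUSG00000031375.14) lies on the plus strand of chromosome X at 73483602-73495933 (GRCm38). On that chromosome, 286 genes averaged 5 FPKM or more and had a median log2 change of -0.45, and after it was subtracted the change of Bgn was -3.77. The part of the chromosome-wide shift in the Bgn difference was not tested.

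Decorin (Dcn) is the nearest relative of biglycan, carries a single such chain, binds TGF-beta and blocks several receptor tyrosine kinases. Dcn had 2.39 FPKM in PID- cells (0 to 5.37), about 355 fragments, and was listed at 0 in PID+ cells, where 3 fragments would have been worth 0.0278 FPKM. The log2 change on FPKM + 1 was -1.76. The bounds of PID- cells began at 0, so for Dcn they did not separate the conditions.

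Osteomodulin (Omd), a keratan sulfate proteoglycan of mineralized tissue, had 3.74 FPKM in PID- cells (0 to 11) and 0.107 FPKM in PID+ cells (0 to 0.921). This is a 35.1-fold lower value in PID+ cells as a plain ratio and a log2 change of -2.10 on FPKM + 1. The values correspond to about 728 and 15 fragments with the longer of 2 transcripts. The counting error of such numbers alone gives an interval of 21.2 to 63.3 (95%, exact binomial) for the ratio, but the deposited bounds of Omd overlapped.

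Prelp, which anchors basement membranes to the collagen below them, had 0.767 FPKM in PID- cells (0 to 1.79) and was listed at 0 in PID+ cells. About 248 fragments lay behind the PID- value. The log2 change was -0.82 on FPKM + 1, which a gene under 2 FPKM cannot bring past 3-fold, and -3.12 with 0.1 added in place of 1. With that smaller addition, 4 of the 10 genes were at least 3-fold lower (Bgn, Dcn, Omd and Prelp) and 1, Acan, was at least 3-fold higher, against 795 lower and 621 higher of all 21959 genes.

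The remaining 4 small leucine-rich genes were near or at 0 in both conditions. Lumican (Lum), the corneal and dermal keratan sulfate proteoglycan, was listed at 0 in both. Fibromodulin (Fmod), which shares a collagen-binding site with lumican, had 0.0299 FPKM in PID- cells (0 to 0.113), about 8 fragments, and was listed at 0 in PID+ cells. Osteoglycin or mimecan (Ogn) had 0.0856 FPKM in PID- (0 to 0.738) and 0.0124 FPKM in PID+ cells (0 to 0.225), about 19 and 2 fragments, a ratio of 6.89 with a counting interval of 1.66 to 61.1. The sign of its log2 change, -0.10, turned to 0.10 when the chromosome median was subtracted. Asporin (Aspn), a relative of decorin with an aspartate-rich end, had 0.0198 FPKM in PID- (0 to 0.349) and 0.0203 FPKM in PID+ cells (0 to 0.304), about 4 and 3 fragments, a ratio of PID+ to PID- of 1.03 with a counting interval of 0.151 to 6.10. Its log2 change was 0.00, and a difference within that interval could not be seen at this depth. Intervals from fragment numbers cover counting error only.

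The large proteoglycans had their higher values in PID+ cells. On FPKM + 1 neither passed 3-fold, which Acan, under 2 FPKM in both conditions, could not do. Versican (Vcan), a provisional-matrix proteoglycan of developing and wounded tissue, had 0.990 FPKM in PID- cells (0 to 2.76) and 2.34 FPKM in PID+ cells (0 to 6.34). The PID+ value was 2.36-fold higher as a plain ratio and the log2 change was 0.75. Aggrecan (Acan), the main proteoglycan of cartilage, had 0.368 FPKM in PID- cells (0 to 0.861) and 1.47 FPKM in PID+ cells (0.00715 to 2.93). This was 3.98-fold higher as a plain ratio, about 722 against 250 fragments with a counting interval of 3.44 to 4.61, and a log2 change of 0.85, or 1.74 and past 3-fold with a pseudocount of 0.1. For both genes the deposited bounds of the conditions overlapped, and both log2 changes stayed above 0 with equal total FPKM, equal upper quartiles, equal Gapdh and the chromosome median subtracted. The smallest were 0.34 for Vcan and 0.51 for Acan, both with equal Gapdh. Acan lies on the plus strand of chromosome 7 at 79053483-79115099 and Vcan on the minus strand of chromosome 13 at 89655312-89742509. Vcan has 5 basic transcripts of 2273 to 12427 bases, so its fragment number is uncertain, at about 335 to 1969 in PID+ and 195 to 1146 in PID- cells.

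The order of the levels differed between the conditions. In PID- cells the order in FPKM ran Bgn, Omd, Dcn, Vcan, Prelp, Acan, Ogn, Fmod, Aspn and Lum, and the bounds of Bgn were apart from those of 8 of the other 9 genes, all but Omd. In PID+ cells it ran Vcan, Acan, Bgn, Omd, Aspn and Ogn, followed by Dcn, Lum, Fmod and Prelp at 0. In both orders the bounds of every gene overlapped with those of its neighbours. The 8 small leucine-rich genes together reached 35.3 FPKM in PID- and 0.710 FPKM in PID+ cells, and without Bgn 7.03 and 0.139 FPKM. The sum of Vcan and Acan was 1.36 FPKM in PID- and 3.81 FPKM in PID+ cells. Vcan and Acan together made up 3.71% of the summed FPKM of the 10 genes in PID- and 84.3% in PID+ cells, and Bgn alone made up 77.1% and 12.6%.

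Of the other scalings, equal total FPKM and equal Gapdh lower every PID+ value and equal upper quartiles leave it nearly as it was, so the lower calls of Bgn, Omd and Dcn could not be lost under them. Gapdh, the glycolytic enzyme gene often used as a reference, was itself 1.54-fold higher in PID+ cells, at 2570 FPKM (650 to 4490) against 1666 FPKM (511 to 2822). Making Gapdh equal shifted the median log2 change of all genes by -0.08 and that of genes averaging 1 FPKM or more by -0.56. Of all genes past 3-fold in either direction, 62.2% were lower in PID+ cells as deposited, 67.8% with equal total FPKM and 89.7% with equal Gapdh. Subtracting the chromosome medians brought the changes closer to 0, at -3.77 for Bgn, -1.90 for Omd and -1.71 for Dcn, all still past 3-fold.

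7 of the 8 small leucine-rich genes lie in 3 chromosomal clusters of this family. The cluster on chromosome 10 spans 203 kb and holds Dcn (97479609-97518143), Lum, Kera and Epyc on the plus strand. Apart from Dcn, this cluster was at or near 0, with Lum and Epyc listed at 0 in both conditions and Kera at 0 and 0.00828 FPKM in PID- and PID+ cells, the latter about 1 fragment. Its neighbours were Btg1, an antiproliferative gene at 22.8 and 19.0 FPKM, and Ccer1, at 0 and 0.00869 FPKM. The Dcn value of PID- cells was thus not shared by the genes beside it.

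The cluster on chromosome 13 holds Ecm2, Aspn, Omd (49582462-49592822) and Ogn over 120 kb. Omd differed by a log2 change of -2.10, whereas Ecm2, a matrix protein of fat and female reproductive tissue, was at 0.0466 FPKM in PID- and 0.0986 FPKM in PID+ cells and Aspn and Ogn lay below 0.1 FPKM in both. All 4 genes lie inside Cenpp, a centromere protein gene on the opposite strand with 9.23 FPKM in PID- (0 to 20.1) and 7.05 FPKM in PID+ cells (0 to 15.2). Aspn shares exon sequence with Cenpp, while Omd and Ogn share none. The library kit does not keep the strand as far as the sources state, so reads of Aspn and Cenpp could not be told apart there and Aspn is uncertain. The outer neighbours, Ippk, an inositol phosphate kinase gene, and Nol8, a nucleolar protein gene, had log2 changes of 0.39 and 0.34.

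The cluster on chromosome 1 holds Optc and Prelp on the minus strand and Fmod on the plus strand, over 151 kb. Optc, the opticin gene of the eye, was listed at 0.0130 FPKM in PID- and 0 in PID+ cells. Prelp shares exon sequence with an antisense transcript, Gm15851, which has no row of its own. The PID- value of Prelp could therefore include reads of Gm15851. Of the neighbours, Atp2b4, a plasma membrane calcium pump gene, had 12.0 FPKM in PID- and 2.37 FPKM in PID+ cells (log2 change -1.95), whereas Btg2 had 15.5 and 28.4 FPKM.

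**Figure D2:**
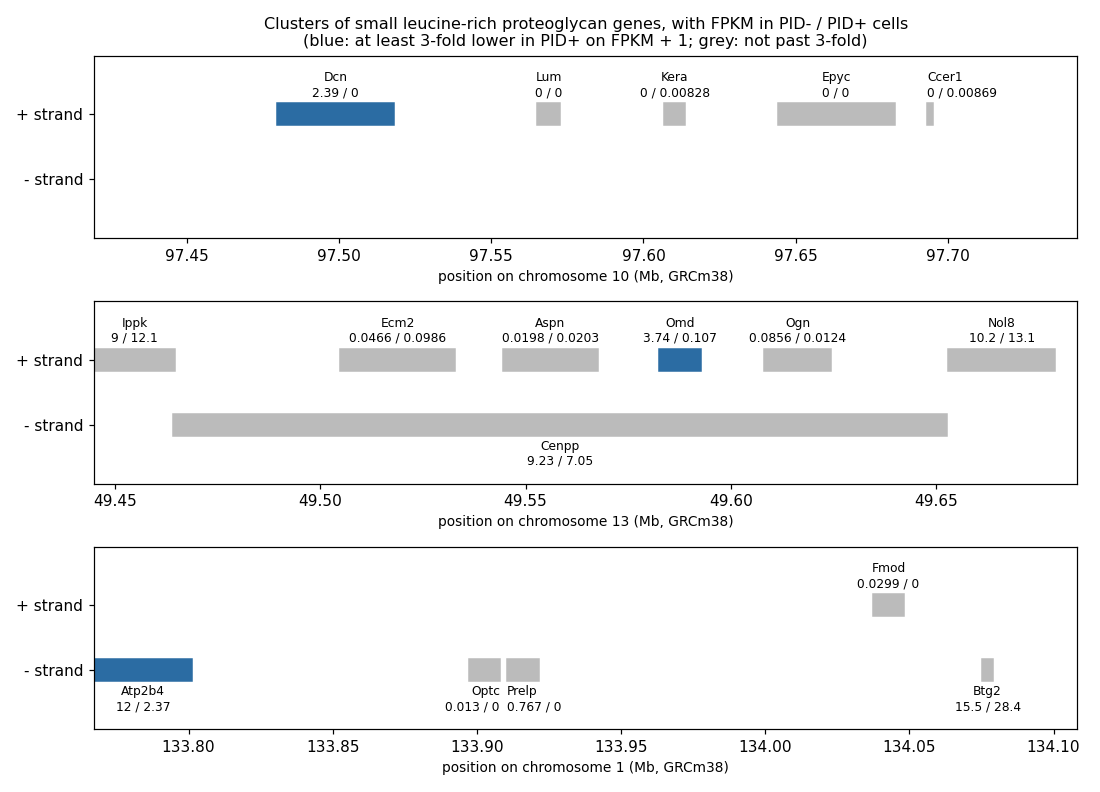
Map to scale of the 3 clusters (horizontal axes: position in Mb, GRCm38; boxes on the upper and lower line: genes on the plus and minus strand). Boxes are protein-coding genes with a row in the table, and the numbers are FPKM in PID- and PID+ cells. The boxes of Ippk and Atp2b4 are cut at the edge of the map, and Btg1 lies outside it and is not drawn. Dcn, Omd and, outside the cluster, Atp2b4 are the blue genes, at least 3-fold lower in PID+ cells on FPKM + 1.

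RefSeq promoter windows (250 bases before to 50 after the transcription start, GRCm38.p6) were found for 8 of the 10 genes, all but Dcn and Lum. They were searched on both strands for 5 short motifs, and the share of all 32851 windows with a match is given beside each. The E-box of Snail and Zeb repressors, CAGGTG, was in 0 of the 8 windows (20.2% of all). The motif of Tcf and Lef factors, CTTTGAT, was in 0 of the 8 (3.73% of all), and that of AP-1, TGANTCA, also in 0 (7.81% of all). The motif of Tead factors, GGAATG, was in 2 of the 8, Ogn and Acan (14.7% of all). The TATA box, TATAAA, was in 2 of the 8, Ogn and Aspn (13.6% of all), and its matches on both strands overlap each other in Ogn. A match is a run of letters and not a shown binding site.

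The windows of the genes with the largest differences are printed here, Bgn and Omd for the lower and Acan for the higher values in PID+ cells, since they differ in base composition. G and C made up 63.7% of the Bgn window, 37.7% of the Omd window and 74.0% of the Acan window, and the median of all windows was 52.7%. The Bgn window is chrX:73483351-73483650 (plus strand), the Omd window chr13:49582212-49582511 (plus strand) and the Acan window chr7:79052976-79053275 (plus strand), which follows the RefSeq start of Acan, upstream of the Gencode start given above. Capitals mark the GGAATG match, which in Acan lies on the opposite strand.
Bgn: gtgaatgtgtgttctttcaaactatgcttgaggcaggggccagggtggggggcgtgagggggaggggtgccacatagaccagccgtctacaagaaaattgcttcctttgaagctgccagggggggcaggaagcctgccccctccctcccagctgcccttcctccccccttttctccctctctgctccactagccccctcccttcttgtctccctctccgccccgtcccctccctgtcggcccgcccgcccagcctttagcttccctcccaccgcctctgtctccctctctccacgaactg
Omd: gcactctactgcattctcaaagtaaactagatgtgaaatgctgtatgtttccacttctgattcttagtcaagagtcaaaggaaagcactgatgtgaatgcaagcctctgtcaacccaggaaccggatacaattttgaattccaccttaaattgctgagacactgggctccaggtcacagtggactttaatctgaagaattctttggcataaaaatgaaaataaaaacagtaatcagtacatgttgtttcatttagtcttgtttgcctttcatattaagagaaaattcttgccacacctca
Acan: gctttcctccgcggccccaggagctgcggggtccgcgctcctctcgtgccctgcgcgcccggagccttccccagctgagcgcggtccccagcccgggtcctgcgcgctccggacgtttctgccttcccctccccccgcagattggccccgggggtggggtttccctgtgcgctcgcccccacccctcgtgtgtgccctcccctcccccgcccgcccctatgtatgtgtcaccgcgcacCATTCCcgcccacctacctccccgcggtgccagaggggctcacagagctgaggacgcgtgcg

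Relatives outside the 10 genes were mostly low. Among 10 other small leucine-rich repeat proteoglycans, 1 was at least 3-fold lower and 0 at least 3-fold higher, with a median log2 change of 0.04. The 1 gene was Tsku, which encodes tsukushi, a secreted inhibitor of BMP and Wnt signals and the most abundant of this list, at 28.8 FPKM in PID- (10.8 to 46.9) and 8.64 FPKM in PID+ cells (1.29 to 16), a log2 change of -1.63. The brain hyalectans Ncan and Bcan did not pass 3-fold (0 of 2, median 0.00, or -0.06 with the chromosome medians subtracted). At their values neither could reach it on FPKM + 1. Bcan was listed at 0 in both conditions and Ncan at 0 in PID- and 0.00209 FPKM in PID+ cells.

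Hyaluronan is the partner that versican and aggrecan need for their aggregates. Of 7 hyaluronan synthases and link proteins, 0 passed 3-fold in either direction, with a median of 0.04 that became -0.06 with equal Gapdh. Only 1 of the 7, Has2, could reach 3-fold on FPKM + 1. Has2, the main synthase of mesenchymal and wounded tissue, was the most abundant, at 11.8 FPKM in PID- (4.13 to 19.4) and 13.6 FPKM in PID+ cells (4.99 to 22.1). Hapln1, the cartilage link protein that locks aggrecan to hyaluronan, was listed at 0.00218 FPKM in PID- and 0 in PID+ cells. This link protein was thus near or at 0 in both conditions, also where Acan was higher. Of the other link proteins, Hapln4 had 0.103 FPKM in PID- and 0.276 FPKM in PID+ cells. Hapln3 had 0.0170 and 0.0234 FPKM and Hapln2 had 0.0664 and 0.0136 FPKM, in that order.

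Heparan sulfate proteoglycans of the cell surface and basement membrane had larger summed FPKM than the 10 genes. Of 10 cell surface heparan sulfate proteoglycans, 1 was at least 3-fold lower and 0 higher, with a median of 0.00 that became 0.15 with the chromosome medians subtracted and -0.41 with equal Gapdh. Sdc1, the syndecan of simple epithelia, led the list at 191 FPKM in PID- (80.9 to 300) and 176 FPKM in PID+ cells (73.9 to 278). Sdc2, the syndecan of mesenchymal cells, was the gene past 3-fold, at 18.0 FPKM in PID- (3.5 to 32.5) and 3.43 FPKM in PID+ cells (0.0358 to 6.83), a log2 change of -2.10, and Sdc3 passed it as well with equal Gapdh. The basement membrane proteoglycans did not pass 3-fold (0 of 3, median -0.68, or -1.30 with equal Gapdh), with Col18a1, the source of endostatin and the highest by the mean of the conditions, at 151 FPKM in PID- and 93.8 FPKM in PID+ cells, although Hspg2 (perlecan) passed it, as lower, with equal Gapdh or a pseudocount of 0.1. Among 10 other carriers of chondroitin sulfate, 1 was at least 3-fold lower and 0 higher (1, Ptprz1, with a pseudocount of 0.1), and the median of -0.03 became 0.02 with the chromosome medians subtracted. The gene was Tgfbr3, the TGF-beta coreceptor betaglycan and the most abundant of its list in PID- cells, at 10.7 FPKM in PID- (3.12 to 18.2) and 0.189 FPKM in PID+ cells (0 to 0.643), a log2 change of -3.29 with bounds apart.

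The enzymes that build the sugar chains were measured next to their core proteins. Of 6 enzymes of the linker that joins every chondroitin, dermatan or heparan sulfate chain to its core, 0 passed 3-fold (median -0.23, or -0.72 with equal Gapdh), and the most abundant, the xylose kinase gene Fam20b, had 36.2 FPKM in PID- and 34 FPKM in PID+ cells. Of 16 enzymes that extend and sulfate chondroitin and dermatan sulfate, 3 were at least 3-fold lower and 0 higher, with a median of -0.28. The median was -0.81 with equal Gapdh, -0.55 with the chromosome medians subtracted and -0.50 with a pseudocount of 0.1, which made 5 genes lower. Chst11, the main chondroitin 4-O-sulfotransferase, was the most abundant in PID- cells, at 38.1 FPKM in PID- (17.1 to 59) and 8.54 FPKM in PID+ cells (2.95 to 14.1), a log2 change of -2.03 with bounds apart. Chsy3, a chondroitin synthase, had 3.10 and 0.309 FPKM (log2 change -1.65), and Chst13, another 4-O-sulfotransferase, had 8.0 and 1.99 FPKM (log2 change -1.59), in PID- and PID+ cells in that order. Chst11 and Chst13 add the same sulfate that biglycan, decorin, versican and aggrecan chains can carry. Of 6 enzymes of keratan sulfate, the chain of lumican, fibromodulin and osteomodulin, 0 passed 3-fold (median -0.58, or -0.87 with equal Gapdh and -1.16 with a pseudocount of 0.1), with B3gnt2 the most abundant at 25 FPKM in PID- and 16.5 FPKM in PID+ cells, although 1, B4galt4, passed it as lower with equal Gapdh and 3 did with a pseudocount of 0.1. On FPKM + 1 only 2 of these 6 enzymes could reach 3-fold.

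The proteases that cut versican and aggrecan did not pass 3-fold (0 of 7, median 0.00, whose sign changed with equal Gapdh and with the chromosome medians subtracted). Only 1 of the 7, Adamts1, could reach 3-fold on FPKM + 1. Adamts1 was the most abundant, at 17.6 FPKM in PID- (5.66 to 29.6) and 11.4 FPKM in PID+ cells (3.69 to 19.2). With a pseudocount of 0.1, 1 of the 7, Adamts15, was at least 3-fold higher.

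Fibrillar collagens are the main partners of the small leucine-rich proteoglycans. Of 9 collagen genes, 3 were at least 3-fold lower and 1 was at least 3-fold higher, with a median of -0.91, and 5 were lower with a pseudocount of 0.1 (median -2.17). Col1a2, a chain of type I collagen, had 11.9 FPKM in PID- (4.07 to 19.7) and 0.0654 FPKM in PID+ cells (0 to 0.242), a log2 change of -3.60 with bounds apart. Col3a1, the type III chain, had 6.35 and 0.339 FPKM (-2.46) and Col1a1, the other type I chain, 11.9 and 2.32 FPKM (-1.95). For both Col3a1 and Col1a1 the deposited bounds of the conditions overlapped. Col11a1, a chain of cartilage type XI collagen, had 0.939 FPKM in PID- (0 to 2.1) and 5.09 FPKM in PID+ cells (1.22 to 8.96), a log2 change of 1.65 that was no longer past 3-fold with equal total FPKM, equal Gapdh or the chromosome median subtracted. Col5a1, the most abundant of the 9, was at 24.7 and 22.5 FPKM. The type I and III collagens bound by biglycan and decorin were thus lower in PID+ cells together with them. Cartilage collagen Col11a1 and cartilage proteoglycan Acan had their higher value in PID+ cells, both with overlapping bounds of the conditions. The other type XI chain of the list, Col11a2, had nearly equal values, at 0.486 FPKM in PID- and 0.505 FPKM in PID+ cells.

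Of 7 ligands and receptors that decorin or biglycan bind, 1 was at least 3-fold lower and 0 higher, and the median of 0.23 became -0.02 with the chromosome medians subtracted, 0.06 with equal Gapdh and 0.70 with a pseudocount of 0.1. Tgfb2 had 19.9 FPKM in PID- (5.09 to 34.7) and 0.492 FPKM in PID+ cells (0 to 1.18), a log2 change of -3.81 with bounds apart. Met, the receptor that decorin can block, was the most abundant by the mean of the conditions, at 24.9 FPKM in PID- (5.56 to 44.2) and 58.4 FPKM in PID+ cells (5.08 to 112), a log2 change of 1.20. Tgfb1 passed 3-fold, as lower, with equal Gapdh.

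**Figure D3:**
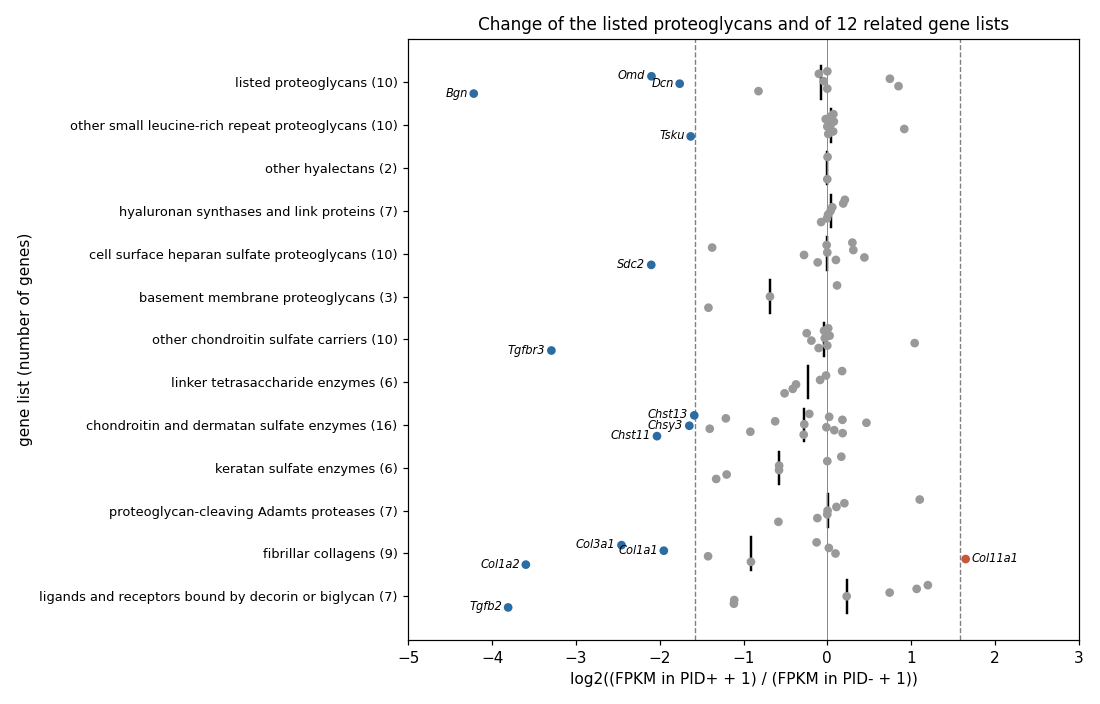
Log2 change of each gene between PID+ and PID- cells (horizontal axis, FPKM + 1) in the 10 proteoglycans and the 12 related lists (rows). Each point is a gene, black bars are list medians, dashed lines mark 3-fold, and genes past it are named, blue where lower and red where higher in PID+ cells. Bgn, at -4.22, lies farthest from 0, and Col11a1, at 1.65, is the gene past 3-fold on the higher side.

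Markers of cell types were read in the same libraries, since most of these matrix genes are typical of stromal cells. Of 10 epithelial markers, 2 were at least 3-fold higher and 1 at least 3-fold lower, with a median of 1.08 (0.45 with equal Gapdh), and their values summed to 5138 FPKM in PID- and 9349 FPKM in PID+ cells. Krt19, an epithelial keratin, was the most abundant by the mean of the conditions, at 2073 and 2469 FPKM. The higher genes were Cldn7 (79.4 and 274 FPKM, log2 change 1.77), which was no longer past 3-fold with equal Gapdh, and Epcam (124 and 401 FPKM, log2 change 1.68), which was no longer past it with equal total FPKM or equal Gapdh. Cdx2, the intestinal transcription factor whose promoter drives Cre here, was lower, with 8.04 FPKM in PID- (1.07 to 15.0) and 0.542 FPKM in PID+ cells (0 to 1.64), a log2 change of -2.55. Villin (Vil1), the marker of intestinal brush borders, was near 0 in both, at 0.0614 and 0.175 FPKM, so the epithelial label held for keratins, claudins and Epcam but not for this marker.

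Of 10 fibroblast markers, 3 were at least 3-fold lower and 0 higher, with a median of -0.88, and 7 were lower with a pseudocount of 0.1 (median -2.28). Their values summed to 35.1 FPKM in PID- and 3.33 FPKM in PID+ cells. The 3 were Col1a2, Col3a1 and Col1a1, the last of which was the most abundant of the list by the mean of the conditions. Without these collagens, 0 of 7 passed 3-fold, which 1 of them could reach on FPKM + 1, while 4 (Loxl1, Pdgfrb, Postn and Thy1) were lower with a pseudocount of 0.1 and 1, Postn, with the chromosome medians subtracted. The sum was 4.98 in PID- and 0.598 in PID+ cells. These 7 were mixed in PID- cells. Postn, a matricellular protein gene, had 2.09 FPKM in PID- and 0.0658 FPKM in PID+ cells, and Loxl1, a collagen and elastin crosslinking enzyme gene, had 1.19 and 0.181 FPKM. The surface markers were lower, with Pdgfra at 0.243 FPKM, Thy1 at 0.377 FPKM and Pdgfrb at 0.987 FPKM in PID- cells and at 0.188, 0 and 0.0896 FPKM in PID+ cells, Fap was at 0.0918 and 0.0736 FPKM, and Dpt was listed at 0 in both. Vim, a mesenchymal intermediate filament gene outside these lists, had 997 FPKM in PID- (213 to 1782) and 19.1 FPKM in PID+ cells (0.124 to 38.1), with bounds apart. The part of fibroblasts in the lower values of Bgn, Dcn and Omd was not tested.

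Markers of the other cell types were mostly low. Of 6 smooth muscle markers, 1 was at least 3-fold lower (Actg2, 3.06 FPKM in PID- and 0.280 FPKM in PID+ cells, log2 change -1.67) and 0 higher, the median was -0.49, Acta2 was the most abundant at 9.76 and 4.39 FPKM, and the sum was 16 and 6.05 FPKM. No endothelial, leukocyte, chondrocyte or mesothelial marker passed 3-fold, which on FPKM + 1 only 1 gene of each of these lists could reach. The 6 endothelial markers summed to 1.17 FPKM in PID- and 3.90 FPKM in PID+ cells (median 0.13, or 0.36 with the chromosome medians subtracted and 0.85 with a pseudocount of 0.1), led by Kdr at 1.01 and 3.33 FPKM and with 2 genes (Kdr and Cdh5) past 3-fold, as higher, with a pseudocount of 0.1, and the defining marker Pecam1 was at 0.0931 and 0.0960 FPKM. The 7 leukocyte markers summed to 17.1 and 22 FPKM (median 0.01), nearly all of it Cd68, at 16.8 and 21.8 FPKM, while Ptprc, the marker of all leukocytes, was at 0.00811 and 0.0264 FPKM and Cd3e at 0 in both.

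Chondrocyte markers were read because aggrecan is a cartilage gene. The 6 markers summed to 9.64 FPKM in PID- and 9.88 FPKM in PID+ cells (median 0.02), most of it Sox9, which is also expressed at the base of intestinal crypts, at 8.95 and 8.80 FPKM. Col2a1, which defines cartilage, was at 0.0453 and 0.119 FPKM, and Col9a1 was listed at 0 in both. The 4 mesothelial markers summed to 554 and 571 FPKM (median 0.03), which was Msln, at 554 and 570 FPKM, while Wt1 was at 0.0103 and 0.00557 FPKM. Of the glial markers, Sox10, which defines the lineage, was listed at 0 in both.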

How the data were processed

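RNA of PID- and PID+ cells (3 samples each in the labels) was sequenced after poly(A) selection. The authors trimmed reads with cutadapt, aligned them with TopHat to GRCm38.p3 and protein-coding genes, pooled each condition, and deposited FPKM from CuffDiff with lower and upper bounds. The condition called treated in the table was read as PID+ cells and the untreated condition as PID- cells, from the labels. Every direction rests on this reading, which could not be checked on the inhibitor itself, as the table lists no such transgene. By PCR the study found gain of E-cadherin and loss of vimentin in PID+ cells. Under this reading Cdh1, the E-cadherin gene, had 88.0 FPKM in PID- and 192 FPKM in PID+ cells. Vim, at 997 and 19.1 FPKM in that order, was lower in PID+ cells. The annotation release is not given in the sources used here, and 7 genes with another status were left out.

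Log2 changes were calculated on FPKM + 1, and 3-fold was used as a description. The planned permutation test needed values per sample and was not run. Fragments were estimated from FPKM, the longest Gencode M21 basic transcript less 190 bases, and the value of 1 fragment. That value came from genes with 1 transcript, where 97.3% (PID+) and 97.8% (PID-) of low values lay within 0.1 of a whole number. The step was 1.38 times larger in PID+ cells, which gives relative depth only. Numbers for genes with several transcripts are approximate, and at most 3 fragments counted as the floor.

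The members and lists were chosen with earlier results of these data known. Named genes were the 10 members, the most abundant gene (mean of the conditions) and up to 4 genes past 3-fold of each of 12 gene lists and 8 marker lists, genes of the clusters and their neighbours, and Gapdh. Hapln1, Hapln2, Hapln3, Hapln4, Ncan, Bcan, Sdc3, Hspg2, Ptprz1, B4galt4, Adamts15, Tgfb1, Tgfb3, Cdh5, Vim and the single markers were added after their values were seen. The leading gene, median and sum of the glial markers are not reported here. Alternatives were a pseudocount of 0.1, 3 scalings, chromosome medians subtracted, filters at a mean of 1 and 5 FPKM, a 2-fold threshold, bounds apart, and no length correction. For the lists, the pseudocount, the scalings and the chromosome medians were added after the data were seen. The step search was tested on simulated data. Software was pandas 2.3.3, scipy 1.17.1, numpy 2.4.6 and matplotlib 3.10.9 under Python 3.11.15.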

Additional observations from a re-analysis of the deposited data

How the results depend on the processing

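The count of 3 proteoglycans at least 3-fold lower in PID+ cells was also 3 with equal total FPKM, equal upper quartiles, equal Gapdh, chromosome medians subtracted, a mean of at least 1 FPKM and a 2-fold threshold, and 4 with a pseudocount of 0.1. It was 1 both for genes with a mean of at least 5 FPKM, since Omd and Dcn lie under that mean, and for bounds apart. The count at least 3-fold higher was 1 with a pseudocount of 0.1 and 0 elsewhere. Over all genes, the lower and higher counts of 377 and 229 became 795 and 621 with a pseudocount of 0.1, 662 and 76 with equal Gapdh, 221 and 144 with a mean of at least 5 FPKM, 828 and 726 at 2-fold, and 119 and 41 with bounds apart. Fewer genes enter under the filter. Equal Gapdh multiplies every PID+ value by 0.648, which by construction raises the lower count and reduces the higher one. The median of the 10 proteoglycans was -0.55 with a pseudocount of 0.1, -0.0722 with equal total FPKM, -0.0716 with equal upper quartiles, -0.0747 with equal Gapdh and 0.0114 with chromosome medians subtracted. Since equal total FPKM and equal Gapdh lower every PID+ value and equal upper quartiles change it by little, they are no test of the lower calls. For the 20 lists, 183 of 200 counts under these alternatives stayed within 1.5 times, which says little since most of the counts are 0 and equal upper quartiles barely change any value, and 8 of 100 medians changed sign. 6 of the 10 genes had at most 3 estimated fragments in a condition, with and without the length correction. Single-gene changes and medians have no separate value under the filters and thresholds. No paired analysis was possible because the values of a condition are pooled, and for the same reason no sample could be left out. Depth is known only relative between the conditions, and the deposited bounds rest on CuffDiff's own error model, with no spread between animals.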
